A study of Mus musculus with 7 samples.

Results

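The stellate cell, pericyte and extracellular matrix genes of pancreatic islets were examined in db/db mice that had received an adeno-associated virus (AAV) for adipsin or for green fluorescent protein (GFP). They are 34 genes chosen by name, of 51912 in the count table: 5 fibrillar collagen chains, 6 basement membrane genes, the 3 chains of collagen VI, 3 small leucine-rich proteoglycans, 6 elastic fibre and matrix glycoproteins, 4 matrix enzymes and inhibitors, and 7 markers of stellate cells and pericytes. All 34 were matched to an Ensembl identifier and passed the filter on low counts, which left 16504 genes for testing. The 3 AAV-Adipsin and 4 AAV-GFP libraries each came from a separate mouse, taken 4 weeks after the vector and after 12 hours of islet culture. Every animal was db/db, so all lacked a working leptin receptor, and the AAV-GFP mice are the controls for the vector. The promoter and dose of the vector and the age of the mice are not given in the labels.

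Pericytes wrap the capillaries of islets, and pancreatic stellate cells lie around acini, ducts and islets. Activated stellate cells and fibroblasts lay down interstitial matrix, made of fibrillar collagens, collagen VI, proteoglycans and elastic fibres. The vascular basement membrane of islets is instead built from collagen IV, laminins, nidogen and heparan sulfate proteoglycans, and in islets much of it comes from endothelial cells, with which beta cells share it. Genes such as Col4a1, Col4a2, Col15a1, Col18a1, Lama4, Nid1 and Sparc are made by endothelial cells as well as by mural cells.

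Total counts per library ran from 29601707 to 43997400. Cfd, the mouse gene for adipsin, was counted 3965, 839 and 1481 times in AAV-Adipsin and 1, 0, 0 and 0 times in AAV-GFP, which matches the labels, and it was the only gene of 16504 past the threshold (edgeR quasi-likelihood adjusted p = 0.0420). No gene passed when AAV-Adipsin replicate 3 or any single AAV-GFP library was left out. Ins2, an insulin gene, stood at 109000 to 138000 CPM (counts scaled by library size) in AAV-Adipsin and at 114000 to 136000 CPM in AAV-GFP. One library stood apart for the matrix genes: AAV-GFP replicate 4 was the highest of all 7 for 27 of the 34 genes, whereas it was the highest for 25.2% of all genes tested. AAV-GFP replicate 2 was the lowest for 29 of the 34, against 12.9% of all genes. Libraries are also described in 2 ways, a treatment name for replicate 1 of each group and a db number for the other 5. Differences of mean log2 CPM between the 2 libraries numbered 1, and between the groups among the other 5, are therefore given beside the pooled ones.

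None of the 34 genes passed the threshold: edgeR called 0, where it called 0.00606% of all genes, DESeq2 called 0, where it called 0.0242%, and limma-voom called 0. At an unadjusted p under 0.05 edgeR had 1 of the 34, Lama4, against 1.16% of all genes, and DESeq2 had 4, against 1.3%. The fitted log2 fold change (AAV-Adipsin over AAV-GFP) was above 0 for 31 of the 34, where 46.2% of all genes tested were above 0. By DESeq2 it was also above 0 for 31, against 48.5% of all genes. The edgeR median of the 34 was 0.26, and that of all genes was -0.01. With description style as a batch term 0 were called (0.00606% of all genes), 1 had an unadjusted p under 0.05 (2.78%) and 32 were above 0 (46.0%). These counts depended on single libraries. Without AAV-GFP replicate 2 the number above 0 was 20 and the median 0.04; without AAV-GFP replicate 3 the median was 0.08, and without AAV-Adipsin replicate 2 it was 0.18 and without AAV-GFP replicate 1 it was 0.18. Without AAV-GFP replicate 4 the median was 1.05. In bulk islets, a difference in the number of cells of a type and a difference in RNA per cell cannot be told apart.

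The libraries fell in a regular order. In 29 of the 34 genes AAV-GFP replicates 1, 2 and 3 all lay below every AAV-Adipsin library, which 4.21% of all genes tested did. In 24 of the 34, AAV-GFP replicate 4 lay above every AAV-Adipsin library at the same time, against 1.82% of all genes. This order was noticed in these data and describes these 7 libraries. The genes also varied more between libraries than most: the highest library was a median of 5.87-fold above the lowest, from 1.5-fold for Lama4 to 17.4-fold for Mmp2, where the median over all genes tested was 1.47-fold. The mean log2 CPM of the 34 genes was 3.23, 3.83 and 3.60 in the AAV-Adipsin libraries and 3.01, 2.08, 2.54 and 4.29 in the AAV-GFP libraries. AAV-Adipsin libraries thus lay between 3 lower and 1 higher AAV-GFP library. AAV-GFP replicate 1, at 3.01, was closer to the lowest AAV-Adipsin library, at 3.23, than that was to the highest, at 3.83.

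**Figure D1:**
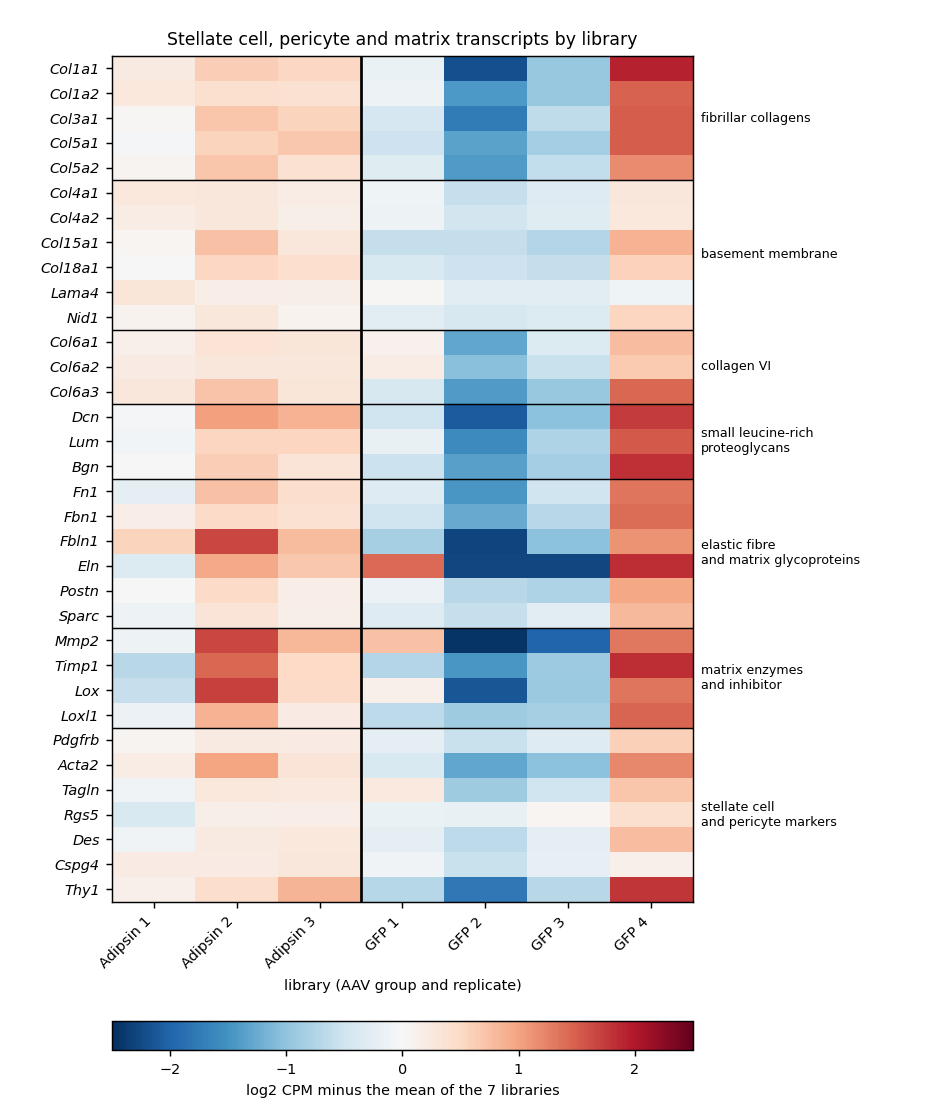
Colour gives the log2 CPM of each of the 34 genes (rows, grouped by role) in each library (columns), minus the mean of that gene over the 7 libraries; AAV-Adipsin libraries stand left of the line and AAV-GFP libraries right of it, and differences beyond the ends of the scale take the end colours. AAV-GFP replicate 4 is the highest library for 27 of the 34 genes and AAV-GFP replicate 2 the lowest for 29.

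Fibrillar collagens form the cross-striated fibres of interstitial matrix. All 5 chains had fold changes above 0, from 0.04 to 0.36, and none passed. Col1a1, for the alpha 1 chain of collagen I, stood at 26.4, 34.6 and 32.4 CPM in the AAV-Adipsin libraries and at 20.1, 4.94, 11.7 and 85.0 CPM in the AAV-GFP libraries. AAV-GFP replicate 4 was 17.2-fold above AAV-GFP replicate 2, and the AAV-Adipsin values lay inside the AAV-GFP range. The 3 AAV-Adipsin mice averaged 31.1 ± 4.23 CPM and the 4 AAV-GFP mice 30.4 ± 36.9 CPM (SD), with a log2 fold change of 0.04 (SE 0.90; edgeR adjusted p = 1.00). Its partner Col1a2 was at 20.7, 22.8 and 22.3 CPM in AAV-Adipsin and at 15.7, 6.36, 8.91 and 47.5 CPM in AAV-GFP (log2 fold change 0.17, SE 0.68). Col3a1, the single chain of collagen III, was at 25.1, 40.0 and 36.3 CPM in AAV-Adipsin and at 18.5, 7.37, 16.0 and 70.5 CPM in AAV-GFP (0.27, SE 0.74). In all 3 genes the groups overlapped only through AAV-GFP replicate 4. Col5a1 and Col5a2, chains of the collagen V that starts fibre assembly, had the same order of groups, with 0.26 (SE 0.69) and 0.36 (SE 0.58).

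The collagen I chains did not keep a fixed ratio across libraries. Per kilobase of transcript, Col1a1 was 1.15, 1.37 and 1.31 times Col1a2 in the AAV-Adipsin libraries and 1.15, 0.699, 1.19 and 1.61 times in the AAV-GFP libraries. The ratio was lowest in the library with the least collagen I transcript and highest in the library with the most. For collagen IV the corresponding ratio of Col4a1 to Col4a2 averaged 1.60 ± 0.0382 over 3 AAV-Adipsin mice and 1.54 ± 0.0646 over 4 AAV-GFP mice (SD), and the highest library was only 1.13-fold above the lowest, against 2.31-fold for collagen I.

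Basement membrane genes varied in a narrower range. All 6 had fold changes above 0, with a median of 0.38, and AAV-GFP replicate 4 was the highest library for only 3 of them. Lama4, which encodes the laminin alpha 4 chain of blood vessels, had 23.9, 21.7 and 21.4 CPM in the AAV-Adipsin libraries and 19.6, 16.0, 16.0 and 17.9 CPM in the AAV-GFP libraries. The groups did not overlap, and AAV-GFP replicate 4 was not high. The 3 AAV-Adipsin mice averaged 22.3 ± 1.39 CPM and the 4 AAV-GFP mice 17.4 ± 1.75 CPM (SD). The fitted log2 difference of 0.36 (SE 0.10) did not pass (edgeR unadjusted p = 0.00772, adjusted p = 1.00). It ran from 0.31 to 0.44 when single libraries were left out of the edgeR fit, and the difference of mean log2 CPM was 0.28 between the libraries numbered 1 and 0.37 among the other 5. Lama4 (ENSMUSG00000019846) occupies bases 38965515 to 39110188 of chromosome 10 (GRCm38, plus strand).

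Separation of the groups, with AAV-Adipsin higher, occurred for 2 of the 34 genes, Lama4 and Cspg4, where it occurred for 1.16% of all genes tested. None of the 34 separated in the other direction, against 1.58% of all genes.

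Col4a1 and Col4a2 encode the chains of the main collagen IV network of vessel walls. Col4a1 stood at 276, 281 and 261 CPM in AAV-Adipsin and at 214, 155, 185 and 279 CPM in AAV-GFP, with a log2 fold change of 0.39 (SE 0.18; edgeR unadjusted p = 0.0539, adjusted p = 1.00). Col4a2 stood at 164, 175 and 160 CPM in AAV-Adipsin and at 131, 104, 117 and 172 CPM in AAV-GFP, with 0.35 (SE 0.16; edgeR unadjusted p = 0.0549, adjusted p = 1.00). In both, AAV-GFP replicate 4 lay within the AAV-Adipsin range and the other AAV-GFP libraries below it. The differences in log2 CPM for Col4a1 were 0.37 between the libraries numbered 1 and 0.44 among the rest, and those for Col4a2 were 0.32 and 0.39. These genes lie head to head on chromosome 8: Col4a1 takes up bases 11198423 to 11312826 (minus strand) and Col4a2 bases 11312805 to 11449287 (plus strand). Their RefSeq starts (GRCm38.p6) overlap by 22 bases, shown here because this stretch is the beginning of both transcripts. It is chr8:11312805-11312826, read on the plus strand, and all of it is in capitals because all of it is shared.
Col4a1 and Col4a2 shared start: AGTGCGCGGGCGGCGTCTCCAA
The strand setting of the counting is not given in the sources used here, and reads within these bases could be assigned to either gene. The overlap is short beside transcripts of 6615 bases for Col4a1 and 6450 bases for Col4a2.

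The other basement membrane genes were more variable. Col15a1 and Col18a1 encode the multiplexin collagens, the second of which is the source of endostatin, and Nid1 encodes nidogen, a linker of laminin and collagen IV. Col15a1 was at 36.4, 58.8 and 42.7 CPM in AAV-Adipsin and at 23.4, 23.3, 21.4 and 64.4 CPM in AAV-GFP (log2 fold change 0.48, SE 0.43). Col18a1 was at 52.3, 75.8 and 70.8 CPM in AAV-Adipsin and at 40.5, 37.2, 35.0 and 79.5 CPM in AAV-GFP (0.47, SE 0.30). Nid1 had 0.22 (SE 0.22). In all 3, AAV-GFP replicates 1 to 3 were close to each other and below AAV-Adipsin, and AAV-GFP replicate 4 was the highest library.

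Interstitial and basement membrane transcripts therefore differed in how far the libraries spread. The summed CPM of the 11 fibrillar collagen, collagen VI and proteoglycan genes came to 27.3%, 34.7% and 34.4% of that of the 6 basement membrane genes in the AAV-Adipsin libraries, and to 26.9%, 14.3%, 21.9% and 66.0% in the AAV-GFP libraries. The AAV-Adipsin shares again lay between those of AAV-GFP replicates 1 to 3 and that of replicate 4.

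**Figure D2:**
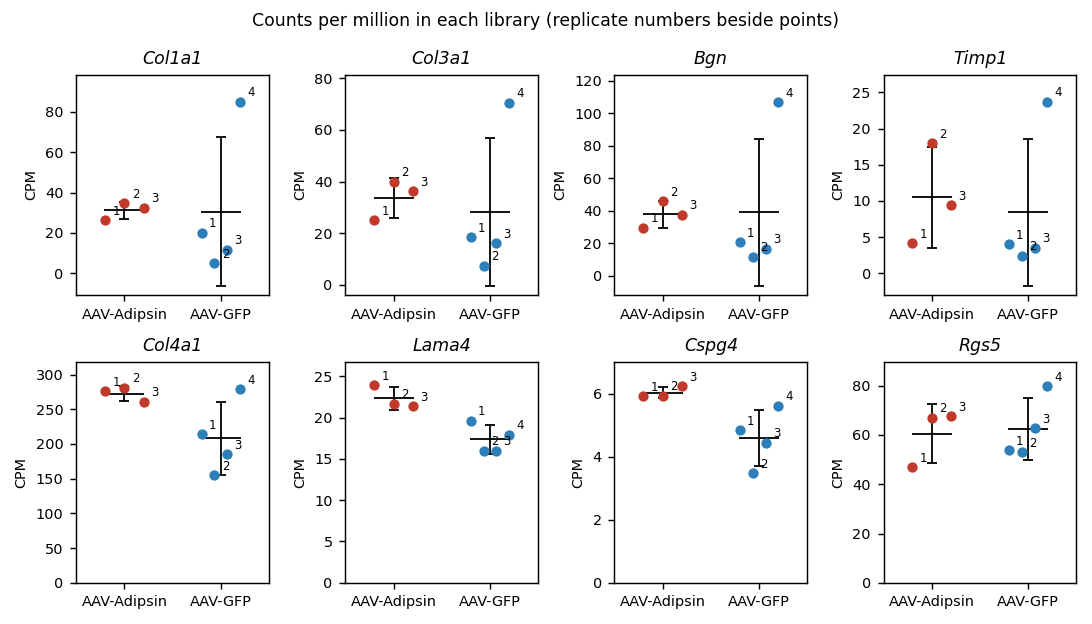
Each panel plots the CPM of 1 gene in every library, with AAV-Adipsin left of AAV-GFP, replicate numbers beside the points, the group mean as a horizontal line and 1 SD as a bar (n = 3 and n = 4; axes include 0, and bars of the widest groups run below it). In Col1a1, Col3a1, Bgn and Timp1 AAV-GFP replicate 4 lies above every other library, and in Lama4 and Cspg4 every AAV-Adipsin library lies above every AAV-GFP library.

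Collagen VI forms beaded filaments close to cell surfaces. Its chains Col6a1, Col6a2 and Col6a3 had log2 fold changes of 0.26 (SE 0.40), 0.30 (SE 0.35) and 0.33 (SE 0.67). Col6a1 was at 10.3, 12.0 and 11.7 CPM in AAV-Adipsin and at 10.2, 3.86, 7.46 and 16.3 CPM in AAV-GFP. Col6a2 was at 9.67, 10.2 and 10.3 CPM in AAV-Adipsin and at 9.52, 4.06, 5.72 and 13.3 CPM in AAV-GFP. Their differences were 0.02 log2 CPM each between the libraries numbered 1, and 0.60 each among the rest. Col6a3 was at 11.1, 15.0 and 11.3 CPM in AAV-Adipsin and at 6.90, 3.44, 4.76 and 24.7 CPM in AAV-GFP, with differences of 0.69 and 0.81. Its ratio to Col6a1, per kilobase, averaged 0.500 ± 0.0661 over 3 AAV-Adipsin mice and 0.423 ± 0.185 over 4 AAV-GFP mice (SD), and it reached 0.690 in AAV-GFP replicate 4.

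Small leucine-rich proteoglycans bind collagen fibres and regulate their width. Bgn, which encodes biglycan, was the most abundant per kilobase, with 29.8, 46.1 and 37.8 CPM in AAV-Adipsin and 20.7, 11.8, 16.8 and 107 CPM in AAV-GFP. The means were 37.9 ± 8.14 CPM over 3 AAV-Adipsin mice and 39.0 ± 45.3 CPM over 4 AAV-GFP mice (SD), and the log2 fold change was -0.04 (SE 0.80). On the scale of mean log2 CPM, Bgn was higher in AAV-Adipsin by 0.53 between the libraries numbered 1, with 0.59 among the rest, so its sign differed between the scales. Leaving out AAV-Adipsin replicate 1 gave a fold change of 0.11, and leaving out AAV-GFP replicate 4 gave 1.20. Dcn, for decorin, was at 5.47, 11.5 and 10.2 CPM in AAV-Adipsin and at 3.98, 1.33, 2.75 and 19.0 CPM in AAV-GFP (0.43, SE 0.86). Lum, for lumican, was at most 2.86 CPM in any library and had 0.14 (SE 0.65).

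Elastic fibre and glycoprotein genes included Sparc, the most abundant of the 34 per kilobase, at a mean of 74.2 CPM per kilobase over the 7 libraries. Sparc encodes osteonectin, a collagen-binding glycoprotein that endothelial cells also make. It stood at 150, 205 and 180 CPM in AAV-Adipsin and at 131, 109, 135 and 285 CPM in AAV-GFP (log2 fold change 0.11, SE 0.32). Postn, for periostin, was at 9.21, 12.7 and 10.2 CPM in AAV-Adipsin and at 8.21, 5.65, 5.38 and 18.0 CPM in AAV-GFP (0.20, SE 0.41). Eln, for elastin, did not follow the order of most of the genes. It was at 0.493, 1.21 and 1.00 CPM in AAV-Adipsin and at 1.67, 0.130, 0.130 and 2.24 CPM in AAV-GFP (-0.21, SE 0.92). Its difference was -1.65 between the libraries numbered 1, and 1.43 among the rest. Fn1, for fibronectin, and Fbn1, for the microfibril protein fibrillin 1, had 0.24 (SE 0.63) and 0.22 (SE 0.61). Fbln1, for fibulin 1, had 1 to 16 counts in a library. It reached 10 counts in only 3 libraries, AAV-Adipsin replicates 2 and 3 and AAV-GFP replicate 4, so it stood at the limit of the filter; its fold change was 1.34 (SE 0.67).

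Matrix enzymes and their inhibitor also varied widely between libraries. Timp1, a secreted inhibitor of matrix metalloproteinases, was at 4.12, 18.0 and 9.36 CPM in AAV-Adipsin and at 4.00, 2.40, 3.53 and 23.7 CPM in AAV-GFP. The log2 fold change was 0.33 (SE 0.92), and without AAV-Adipsin replicate 2 it was -0.30. Timp1 differed by 0.04 between the libraries numbered 1, and by 1.14 among the rest. Timp1 lies inside an intron of Syn1, on the opposite strand, with 0 exon bases shared. Loxl1, an oxidase that crosslinks elastin, was at 2.39, 4.82 and 3.05 CPM in AAV-Adipsin and at 1.69, 1.43, 1.48 and 7.25 CPM in AAV-GFP (0.22, SE 0.62). Lox, the collagen crosslinking oxidase, and Mmp2, a gelatinase, were highest in AAV-Adipsin replicate 2, at 4.66 and 3.96 CPM. Lox had 0.70 (SE 0.78) and Mmp2 0.77 (SE 0.85). Between the libraries numbered 1 the difference was -0.67 for Lox and -0.83 for Mmp2. Among the rest it was 1.58 and 2.13, so the sign turned for both. AAV-Adipsin replicate 2 also had the highest sum of 15 macrophage markers, at 444 CPM. The other AAV-Adipsin libraries had 188 and 212 CPM and the AAV-GFP libraries 175 to 265 CPM. The part of these cells in the values of Lox and Mmp2 was not tested.

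Stellate cell and pericyte markers differed from one another. Pdgfrb, the receptor by which pericytes answer PDGF-B from endothelium, was at 28.2, 31.2 and 31.0 CPM in AAV-Adipsin and at 22.9, 18.2, 21.5 and 40.3 CPM in AAV-GFP (log2 fold change 0.23, SE 0.25). Rgs5, a regulator of G protein signalling that marks pericytes, was at 46.9, 67.1 and 67.7 CPM in AAV-Adipsin and at 53.8, 53.1, 62.8 and 79.9 CPM in AAV-GFP (-0.04, SE 0.18). Rgs5 was the only 1 of the 34 whose lowest library was an AAV-Adipsin library. Its difference was -0.20 between the libraries numbered 1, and 0.07 among the rest. Its highest library was 1.70-fold above its lowest, where that of Thy1, a surface glycoprotein of fibroblasts and other cells, was 12.0-fold above and the fold change 0.20 (SE 0.78). Cspg4, which encodes the NG2 proteoglycan of pericytes, was at 5.91, 5.93 and 6.23 CPM in AAV-Adipsin and at 4.83, 3.47, 4.44 and 5.62 CPM in AAV-GFP. These groups did not overlap, and the log2 fold change was 0.39 (SE 0.18; edgeR unadjusted p = 0.0587, adjusted p = 1.00). The difference was 0.29 between the libraries numbered 1 and 0.45 among the rest, and the fold change was 0.29 to 0.50 with single libraries left out. Cspg4 (ENSMUSG00000032911) occupies bases 56865033 to 56899870 of chromosome 9 (plus strand).

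The contractile genes were weakly expressed. Acta2, for smooth muscle actin, which rises in activated stellate cells, stood at 1.82, 3.17 and 2.00 CPM in AAV-Adipsin and at 1.22, 0.649, 0.780 and 3.69 CPM in AAV-GFP (0.57, SE 0.57). Per kilobase, Rgs5 was 12.8, 10.5 and 16.8 times Acta2 in the AAV-Adipsin libraries and 21.8, 40.6, 40.0 and 10.7 times in the AAV-GFP libraries. The ratio was thus near 40 only in the 2 AAV-GFP libraries with the least collagen I. Tagln, for the actin-binding protein transgelin, had 11 to 35 counts in a library and 0.13 (SE 0.39). The difference for Tagln was -0.30 between the libraries numbered 1, and 0.43 among the rest. Of its 1988 exon bases, 1241 are shared with a gene on the opposite strand, so its counts are uncertain. Des, for desmin, an intermediate filament protein of stellate and muscle cells, had 0.13 (SE 0.31).

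**Figure D3:**
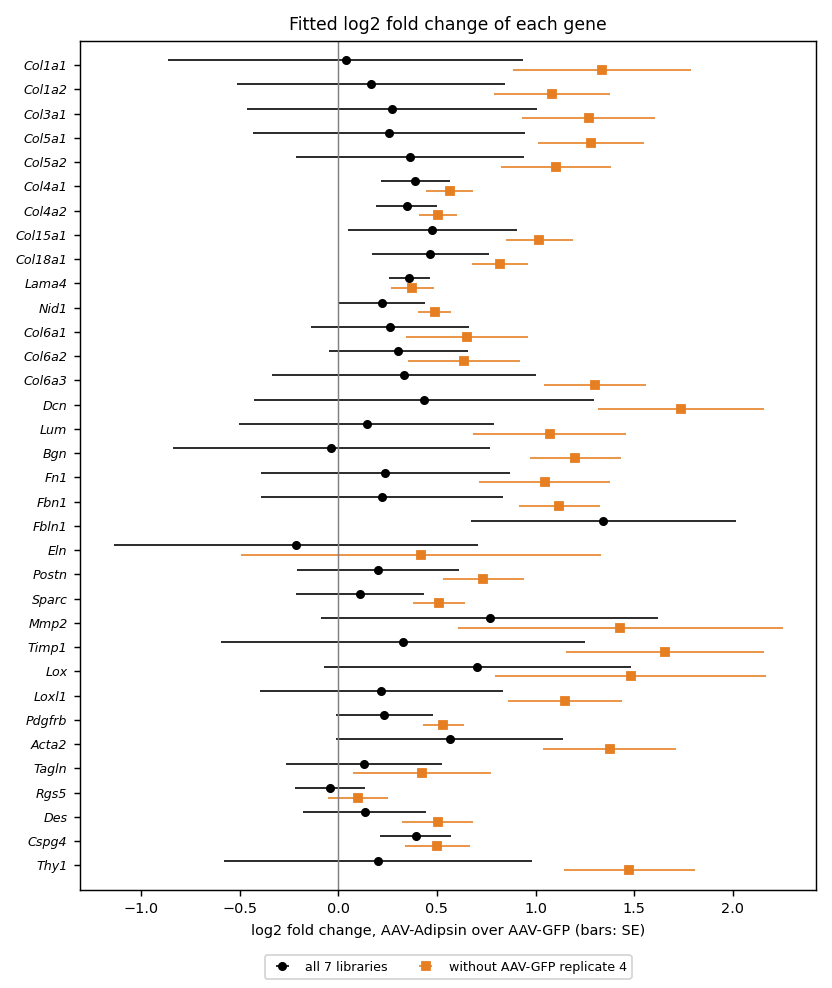
Points give the log2 fold change of AAV-Adipsin over AAV-GFP fitted by edgeR for each of the 34 genes, with all 7 libraries (circles) and without AAV-GFP replicate 4 (squares), and bars give the SE. With all libraries 31 of 34 lie above 0 at a median of 0.26; without that library all 33 that could be tested lie above 0 at a median of 1.05, and Lama4, Cspg4 and Rgs5 move least.

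Without AAV-GFP replicate 4, 26 of the 33 genes tested had an unadjusted edgeR p under 0.05, against 3.49% of all genes, and all 33 were above 0, against 45.6%. The edgeR adjustment over all genes left 0 called, and limma-voom, with 26 at an unadjusted p under 0.05 (3.05% of all genes) and all 33 above 0 (45.3%), also called 0. DESeq2 called 14 of the 33, all higher in AAV-Adipsin, where it called 0.27% of all genes, and it called 0 of the 34 when any other library was left out. By DESeq2 29 of the 33 had an unadjusted p under 0.05, against 3.82%, and all 33 were above 0, against 47.9%. With description style as a batch as well, edgeR called 0, against 0.00613%, and 23 had an unadjusted p under 0.05, against 8.3%, with all 33 above 0, against 45.8%. The 14 were Col3a1, Col5a1, Col5a2, Col4a1, Col4a2, Col15a1, Col18a1, Nid1, Col6a3, Dcn, Bgn, Fbn1, Pdgfrb and Thy1. Dcn then had an edgeR log2 fold change of 1.74, Col1a1 of 1.34 and Lama4 of 0.38. The library was chosen for this after its values had been seen, and no label sets it apart from the other AAV-GFP libraries, so these values describe how far the comparison depends on it.

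Promoters are shown for 4 genes, since 3 of them followed the common order of libraries with a wide spread (Col3a1, Bgn and Timp1) and the other, Rgs5, had similar values in both groups. RefSeq (GRCm38.p6) gave a promoter for 21 of the 34 genes. Each run is the 250 bases before the start, in the direction of the gene, and capitals mark the motifs CCAAT and GGGCGG and also TATAAA, read on either strand. They are chr1:45311288-45311537 for Col3a1, chrX:73483351-73483600 for Bgn, chrX:20869916-20870165 for Timp1 and chr1:169655251-169655500 for Rgs5, all on the plus strand.
Col3a1: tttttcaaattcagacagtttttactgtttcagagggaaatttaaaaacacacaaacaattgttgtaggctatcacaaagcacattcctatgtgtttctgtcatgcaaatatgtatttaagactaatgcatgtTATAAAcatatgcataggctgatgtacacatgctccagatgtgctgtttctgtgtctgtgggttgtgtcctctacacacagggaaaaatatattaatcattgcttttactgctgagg
Bgn: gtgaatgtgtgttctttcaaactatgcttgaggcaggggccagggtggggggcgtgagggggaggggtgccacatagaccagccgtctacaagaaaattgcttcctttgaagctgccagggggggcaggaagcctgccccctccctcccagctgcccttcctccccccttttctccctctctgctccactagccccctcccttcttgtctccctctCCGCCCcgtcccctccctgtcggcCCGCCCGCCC
Timp1: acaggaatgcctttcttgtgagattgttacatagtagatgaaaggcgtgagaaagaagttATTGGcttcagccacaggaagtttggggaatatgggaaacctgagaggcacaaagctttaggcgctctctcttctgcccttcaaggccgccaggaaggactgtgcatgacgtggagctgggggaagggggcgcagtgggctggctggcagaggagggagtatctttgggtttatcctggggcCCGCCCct
Rgs5: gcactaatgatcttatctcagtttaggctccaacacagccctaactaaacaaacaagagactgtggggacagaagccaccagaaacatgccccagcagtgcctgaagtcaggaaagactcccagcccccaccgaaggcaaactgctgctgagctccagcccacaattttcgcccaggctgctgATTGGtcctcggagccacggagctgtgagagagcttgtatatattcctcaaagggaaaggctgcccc
CCAAT occurred in 7 of the 21 genes, or 33.3%, and in 33.8% of all 32851 promoter windows of this length. GGGCGG occurred in 12 genes, or 57.1%, against 32.7% of all windows, and TATAAA in 2, or 9.52%, against 12.4%. A gene was counted if any of its windows held the motif, whereas the shares over all windows count single windows. The percentages are therefore not like for like. Both strands were searched, and overlapping matches were kept. The Bgn window held 3 GGGCGG matches on the reverse strand, the last 2 of them overlapping, the Timp1 window 1, and the windows of Col3a1 and Rgs5 none. A match is a description of letters and not evidence of a bound factor.

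Genes that make, modify and sense the matrix were taken from separate lists. Of 18 collagen processing genes tested, 12 were above 0 with a median of 0.01, and 0 passed; Adamts2, a procollagen protease, had 0.50 (SE 0.51) and Pcolce2 0.19 (SE 0.19). Of 25 genes of TGF-beta and PDGF signalling, 19 were above 0 with a median of 0.11, and 0 passed, with Smad3, a signal transducer, at 0.47 (SE 0.30) and the matricellular gene Ccn1 at 0.45 (SE 0.36). Tgfb1, the main profibrotic ligand, was at 18.0, 31.7 and 23.6 CPM in AAV-Adipsin and at 16.8, 16.1, 21.0 and 43.8 CPM in AAV-GFP. Its highest library was AAV-GFP replicate 4, whereas that of Smad3 and of Ccn1 was AAV-Adipsin replicate 2. AAV-GFP replicate 4 was the highest library for 13 of the 25 genes, against 25.2% of all genes tested. The whole order seen in most matrix genes held in 4 of the 25, against 1.82% of all genes. Of 17 other basement membrane genes tested, 15 were above 0 with a median of 0.21, and 0 passed. Among these Hspg2, for perlecan, had 38.6, 37.0 and 34.6 CPM in AAV-Adipsin and 28.9, 22.7, 21.5 and 32.7 CPM in AAV-GFP. Its groups did not overlap. The log2 fold change was 0.47 (SE 0.15), with edgeR unadjusted p = 0.0110 and adjusted p = 1.00. The groups separated, with AAV-Adipsin higher, for 2 of the 17, against 1.16% of all genes tested. Hspg2 was named for the smallest p of its list, so its separation partly follows from that choice. Nid2, for nidogen 2, had 18.1, 16.0 and 14.4 CPM in AAV-Adipsin and 15.9, 9.38, 11.4 and 11.6 CPM in AAV-GFP (0.42, SE 0.18).

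Receptors and proteases also had 0 genes past the threshold. AAV-GFP replicate 4 was the highest library for 4 of 19 receptors and 5 of 18 proteases and inhibitors, against 25.2% of all genes. The whole order seen in most matrix genes held in 2 of the 19 and 0 of the 18, against 1.82% of all genes. Of 19 matrix receptors, 13 were above 0 with a median of 0.10, and 0 passed. Itga9, an integrin chain, was at 13.1, 15.9 and 14.7 CPM in AAV-Adipsin and at 12.1, 10.2, 10.3 and 10.8 CPM in AAV-GFP, without overlap (0.42, SE 0.12; edgeR unadjusted p = 0.00592, adjusted p = 1.00). Itga6, the laminin receptor chain, had 0.20 (SE 0.08). Of 18 other matrix proteases and inhibitors, 12 were above 0 with a median of 0.29, and 0 passed. Timp3, an inhibitor held in the matrix, was at 31.5, 35.1 and 33.6 CPM in AAV-Adipsin and at 27.6, 26.5, 26.3 and 30.8 CPM in AAV-GFP, without overlap (0.26, SE 0.09). Adamts1 had 0.47 (SE 0.18). Groups separated, with AAV-Adipsin higher, for 2 of the 19 receptors and 2 of these 18 genes, against 1.16% of all genes tested. Itga9 and Timp3 had the smallest p of their lists, so their separation partly follows from that choice.

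Markers of other cell types moved with the libraries as well. The summed CPM of 15 endothelial markers was 741, 874 and 760 in AAV-Adipsin and 647, 584, 619 and 972 in AAV-GFP. This sum had the order seen in the matrix genes, but AAV-GFP replicate 4 was the highest library for only 6 of the 15, and the whole order held in 4 of them. Of these 15, 13 had fold changes above 0 with a median of 0.18, and 0 passed; Erg had 0.27 (SE 0.12) and Kdr, the VEGF receptor, 0.29 (SE 0.15). Pecam1, an adhesion molecule, was at 71.3 to 87.0 CPM in AAV-Adipsin and at 51.8 to 84.7 CPM in AAV-GFP, Cdh5, a cadherin, at 78.6 to 85.9 and at 62.5 to 84.9 CPM, and Kdr at 109 to 144 and at 85.2 to 126 CPM. The part of endothelial cells in the matrix values was not tested. Acinar markers took another course: the sum of 16 was 4332, 14131 and 3666 CPM in AAV-Adipsin and 5737, 10102, 19573 and 3044 CPM in AAV-GFP. It was lowest in AAV-GFP replicate 4, the library with the most matrix transcript. AAV-Adipsin replicate 2, next in matrix transcript, had a higher acinar sum than every library but AAV-GFP replicate 3. Fold changes of the 15 acinar genes tested all lay below 0 (median -0.36), and 0 passed; Ctrc had -1.18 (SE 0.60) and Cela1 -0.66 (SE 0.83). Cpa1 was at 234 to 903 CPM in AAV-Adipsin and at 162 to 1230 CPM in AAV-GFP, and Prss2 at 358 to 1680 and at 352 to 2190 CPM. Of 15 macrophage markers all were above 0 with a median of 0.55, and 0 passed; Mpeg1 had 0.66 (SE 0.29) and Msr1 0.72 (SE 0.42). Csf1r was at 7.81 to 18.4 CPM in AAV-Adipsin and at 6.78 to 9.39 CPM in AAV-GFP, Adgre1 at 1.82 to 8.21 and at 1.77 to 3.69 CPM, and Cd68 at 10.7 to 29.4 and at 9.14 to 18.3 CPM. For Csf1r, Adgre1 and Cd68 only AAV-Adipsin replicate 2 lay above the AAV-GFP range. For Mpeg1 and Msr1 AAV-Adipsin replicates 2 and 3 did. The sum of the 15 was 188, 444 and 212 CPM in AAV-Adipsin and 175 to 265 CPM in AAV-GFP.

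**Figure D4:**
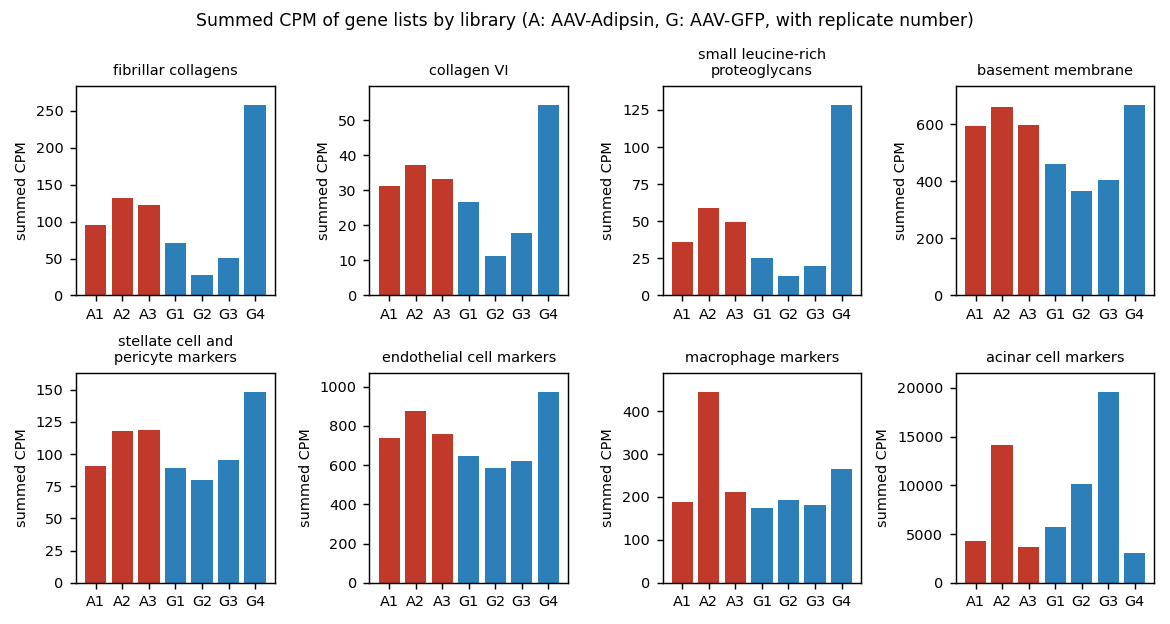
Bars give the summed CPM of the genes in each list by library, with AAV-Adipsin libraries (A) left of AAV-GFP libraries (G), and the number is the replicate. Fibrillar collagens, collagen VI and proteoglycans peak in AAV-GFP replicate 4 at 258, 54.3 and 128 CPM, the endothelial sum runs from 584 to 972 CPM over all libraries and is also highest there, and acinar markers are lowest in that library at 3044 CPM.

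Remaining marker lists had 0 genes past the threshold. The sum of 10 Schwann cell markers was 161 to 165 CPM in AAV-Adipsin and 160 to 172 CPM in AAV-GFP, and 6 of 9 genes tested were above 0 with a median of 0.48, Gfra3 at 0.66 (SE 0.30) and Ngfr at 0.97 (SE 0.62). Sox10 was at 0.570, 0.825 and 0.601 CPM in AAV-Adipsin and at 0.111, 0.325, 0.104 and 1.28 CPM in AAV-GFP, the order seen in the matrix genes. That order held in 2 of the 9 Schwann cell genes tested, against 1.82% of all genes. Of 8 mesothelial markers 3 could be tested and 1 was above 0: Msln was at 4.76 to 10.6 CPM in AAV-Adipsin and at 4.94 to 14.2 CPM in AAV-GFP, Upk3b at most 0.0634 CPM, and Upk1b at 0 in every library. Of 9 adipocyte markers 3 could be tested and 1 was above 0, and Adipoq and Plin1 were at most 0.0519 CPM and Cidec at most 0.245 CPM. Of 12 duct markers 5 were above 0 with a median of -0.03; Spp1 had 0.46 (SE 0.43), and Krt19 was at 19.1 to 77.3 CPM in AAV-Adipsin and at 31.5 to 86.3 CPM in AAV-GFP. Of 10 beta cell markers 1 was above 0 with a median of -0.06, Nkx6-1 at -0.18 (SE 0.09) and Mafa at -0.29 (SE 0.17).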

How the data were processed

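Per the labels' protocols, messenger RNA of cultured islets was made into libraries with a stranded kit, 1 per mouse. The submitters' processing notes name STAR and the mm10 (GRCm38) build. How reads were assigned to genes, with which annotation and strand rule, is not given in the sources used here. The authors deposited raw read counts per gene, whole numbers with 1 column per library.

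Identifiers were matched to GENCODE M21 (51719 of 51912). R 4.3.3 with edgeR 4.0.16 was used: filterByExpr by group, TMM scaling and a robust quasi-likelihood F test of treatment, two-sided, with Benjamini-Hochberg adjustment over the 16504 genes tested and a threshold of 0.05. Standard errors come from the F statistic. CPM is scaled by TMM, and mean log2 CPM used a prior count of 2. Values per kilobase use the length of the principal transcript of GENCODE. DESeq2 1.42.0 and limma 3.58.1 (voom) were alternatives.

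The 34 genes and all lists were chosen with earlier results of these data known. Values in every library are given for the 2 genes of each role most abundant per kilobase, all chains of collagens I, IV and VI, the 4 genes of smallest p in each direction, and the 2 genes of smallest p in other lists, with up to 3 leading markers of each cell type (some of these genes are not reported here); others were added after their values were seen. The labels state no pairing of mice by replicate number, and none was used in the main fit. Deviations of same-numbered libraries from their group means correlated at 0.661, -0.0113 and 0.00706 for replicates 1, 2 and 3. The 0.661, for the 2 libraries with a treatment name, was the highest of all pairs across groups, followed by 0.308. Such correlations cannot settle whether mice were paired. Precision rests on 3 and 4 mice, and counts cover counting error only.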

Additional observations from a re-analysis of the deposited data

Results flagged for a closer look

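Within the 4 AAV-GFP libraries, replicate 4 lay far above the other 3 for 12 of the 34 genes: the gap to the next library, as a share of the whole range, exceeded Dixon's critical value for 4 samples. Chance alone marks about 1 group in 20 in this way, and these 12 come from the same library, so they are not separate events. The share of all genes marked by this rule is not given here. AAV-GFP replicate 4 was the highest library for 25.2% and the lowest for 24.8% of all genes tested. Groups of 3, and so AAV-Adipsin, were not examined like this. Among collagens the AAV-GFP replicate 4 values were 21.0 CPM for Col5a1, 64.4 CPM for Col15a1, 79.5 CPM for Col18a1 and 24.7 CPM for Col6a3. Proteoglycans were at 19.0 CPM for Dcn and 107 CPM for Bgn. The glycoproteins were at 54.9 CPM for Nid1, 23.3 CPM for Fbn1 and 285 CPM for Sparc. The enzymes and inhibitors were at 23.7 CPM for Timp1 and 7.25 CPM for Loxl1, and the surface marker Thy1 was at 8.94 CPM. In the same library endothelial markers summed to 972 CPM and acinar markers to 3044 CPM, the highest and the lowest sums of the 7 libraries. Their part in the matrix values was not tested.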

How the results depend on the processing

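No alternative scaling, filter or batch term gave a call among the 34 genes; DESeq2 without AAV-GFP replicate 4, added after the data were seen, gave 14, so that counts called ran from 0 to 14 with single libraries left out. The number above 0 ran from 19 to 34 and the median from 0.027 to 1.06 over these fits by edgeR, DESeq2 and limma-voom. Over all genes, the 1 call became 4 with DESeq2, and 0 with limma-voom, with low counts kept and with both libraries numbered 1 left out; it ran from 0 to 44 with single libraries left out. With the replicate number as a block the median was 1.06, Bgn 1.20, Eln 0.96 and Rgs5 0.082. Replicate 4 exists only in AAV-GFP, so the block removes it from the comparison. The labels state no pairing of mice by these numbers. The sign also turned for Bgn (0.57) and Eln (0.65) with limma-voom, for Bgn (0.083) with description style as a batch, and for Eln (0.45) and Rgs5 (0.06) with both libraries numbered 1 left out; the cause was not tested. With single libraries left out, log2 fold changes whose sign turned ran from -0.33 to 1.21 for Bgn, -0.31 to 1.45 for Col1a1, -0.12 to 1.15 for Col1a2, -0.041 to 1.28 for Col3a1, -0.59 to 1.32 for Eln, -0.11 to 1.16 for Loxl1, -0.12 to 0.13 for Rgs5, -0.036 to 0.51 for Sparc and -0.31 to 1.67 for Timp1. Lama4, Cspg4, Col4a1, Col4a2, Pdgfrb, Col6a1, Col6a2, Col6a3, Dcn and Postn kept their sign in every fit. The lowest values were 0.012 for Col6a1 and 0.0106 for Postn. Genes with few counts, Fbln1, Tagln and Lum among them, are limited by depth.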
